A study of Mus musculus with 6 samples.

Results

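The semaphorin, ephrin, Slit and netrin genes and their receptors were examined in adult ovarian cells of the Gli1 lineage. Members were all probe sets of the array whose single gene symbol named a class 3 to 7 semaphorin, a plexin, Nrp2, an ephrin or Eph receptor, a Slit, Robo1 to Robo3, a netrin, an Unc5 receptor or Dcc. The rule used names only and no measured value, and it found 146 of 45037 probe sets, which stood for 66 of 18193 named genes, 35 ligands and 31 receptors. Mesonephros_theca cells (3 arrays) had been labelled in the fetus, through tamoxifen doses on E12.5, E14.5 plus E16.5. Ovary_theca cells (3 arrays) were labelled after birth, their nursing dam receiving tamoxifen from postnatal day 1 to day 3. All came from female 129S6/SvEvTac mice that carried Gli1-CreERT2, a tamoxifen-inducible Cre recombinase driven by the hedgehog target gene Gli1, together with Rosa-LSL-tdTomato, a red reporter that Cre switches on for good. Red cells were sorted from the ovaries at 2 months of age. The label therefore marks whatever cells used Gli1 when tamoxifen was given, and the origin and the time of labelling cannot be told apart here.

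Guidance molecules were named for steering growing axons, and they also position vessels, epithelia and stroma. Slits are secreted and act through Robo receptors, netrins through Dcc and Unc5, semaphorins through plexins with or without a neuropilin, and ephrins, which stay on the cell surface, through Eph receptor kinases on the neighbouring cell. In theca, the layer of steroid-producing and contractile cells around a follicle, such signals lie between stroma, vessels and the follicle wall.

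Values are array signals on a linear scale, compared as log2(signal + 16), and a change is Mesonephros_theca minus Ovary_theca with its standard error (SE) from limma. A gene was read from its brightest probe set and tested if that probe set lay above a floor of 99.4, the level below which 40% of all probe sets fell. Of the 66 guidance genes, 44 were tested, 23 ligands and 21 receptors, and for 12 of these at least 1 array still lay below the floor. The tested genes nearest to the floor were Epha7, Robo3 and Efna4, with levels over all arrays of 101, 104 and 109. Just under it lay Sema6c, Epha4 and Ntn5 at 99.4, 97.9 and 95.6.

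The arrays were uneven. Over all probe sets without controls, Mesonephros_theca arrays correlated with each other at 0.844 to 0.896, Ovary_theca arrays at 0.963 to 0.973. Between the groups the correlations were 0.871 to 0.950. Mesonephros_theca replicate 3 lay closer to the Ovary_theca arrays (0.946 to 0.950) than to its own group. Poly-A spike-in signal, added before amplification, stood at 15.0, 14.2 and 2.43 times the Ovary_theca mean on Mesonephros_theca replicates 1, 2 and 3, against 0.683, 0.832 and 1.76 times on the Ovary_theca arrays. Of the theca markers, 8 of 8 on the array were tested, 4 higher and 4 lower, with a median log2 change of 0.15 and none past an adjusted p of 0.05 in limma. Cyp17a1, which makes androgens, had the largest difference among them, at 3346 to 10577 in Mesonephros_theca and 619 to 1413 in Ovary_theca, while Gli1 itself read 133 to 579 in Mesonephros_theca and 487 to 703 in Ovary_theca. Oocyte and surface epithelial markers gave no gene past the floor on average. Granulosa markers were present in part, with 4 of 7 on the array tested, 3 higher and 1 lower. Among them Foxl2 read 3434 to 4626 in Mesonephros_theca and 3858 to 5330 in Ovary_theca, while Amh, Fshr and Nr5a2 were not tested. All 7 stroma markers were tested, 6 higher and 1 lower. In bulk samples such as these, fewer cells of a type and less RNA per cell cannot be told apart.

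No guidance gene passed an adjusted p of 0.05 between the groups. Over all 11703 genes tested 5 passed, or 0.0427%. The smallest adjusted p among members was 0.263 for Slit1. At an unadjusted p of 0.05 there were 7 of 44 members (15.9%), against 13.7% of all genes tested. The 3 arrays of one group lay entirely above or below those of the other for 10 members (22.7%), against 22.2% of all genes. Both shares were close to the background, so the guidance genes as a whole did not stand out. Of the 7 members at an unadjusted p of 0.05, 5 were higher and 2 lower in Mesonephros_theca, where 6.46% of all genes were higher and 7.22% lower. Their number was 12 without Mesonephros_theca replicate 2, 4 without Ovary_theca replicate 2 or 3, and 2 without Ovary_theca replicate 1. Without overlap, 7 members were higher and 3 lower, against 9.56% and 12.6% of all genes.

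Ligands leaned to the lower side and receptors to neither. Among the 23 ligands 7 were higher and 16 lower in Mesonephros_theca, with a median log2 change of −0.28. Among the 21 receptors 10 were higher and 11 lower. Their median was −0.00030, and that of all genes tested was −0.08, with 5091 genes higher and 6612 lower. The ligand median lay within the spread between Mesonephros_theca arrays, whose own ligand medians stood at −0.29, 0.27 and −0.17 log2 units from the Ovary_theca mean. Receptor medians stood at −0.16, 0.44 and 0.07. Replicate 2 was thus the high array in both classes and replicate 1 the low one, and 95% intervals of single members had a median half-width of 0.93 log2 units.

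**Figure D1:**
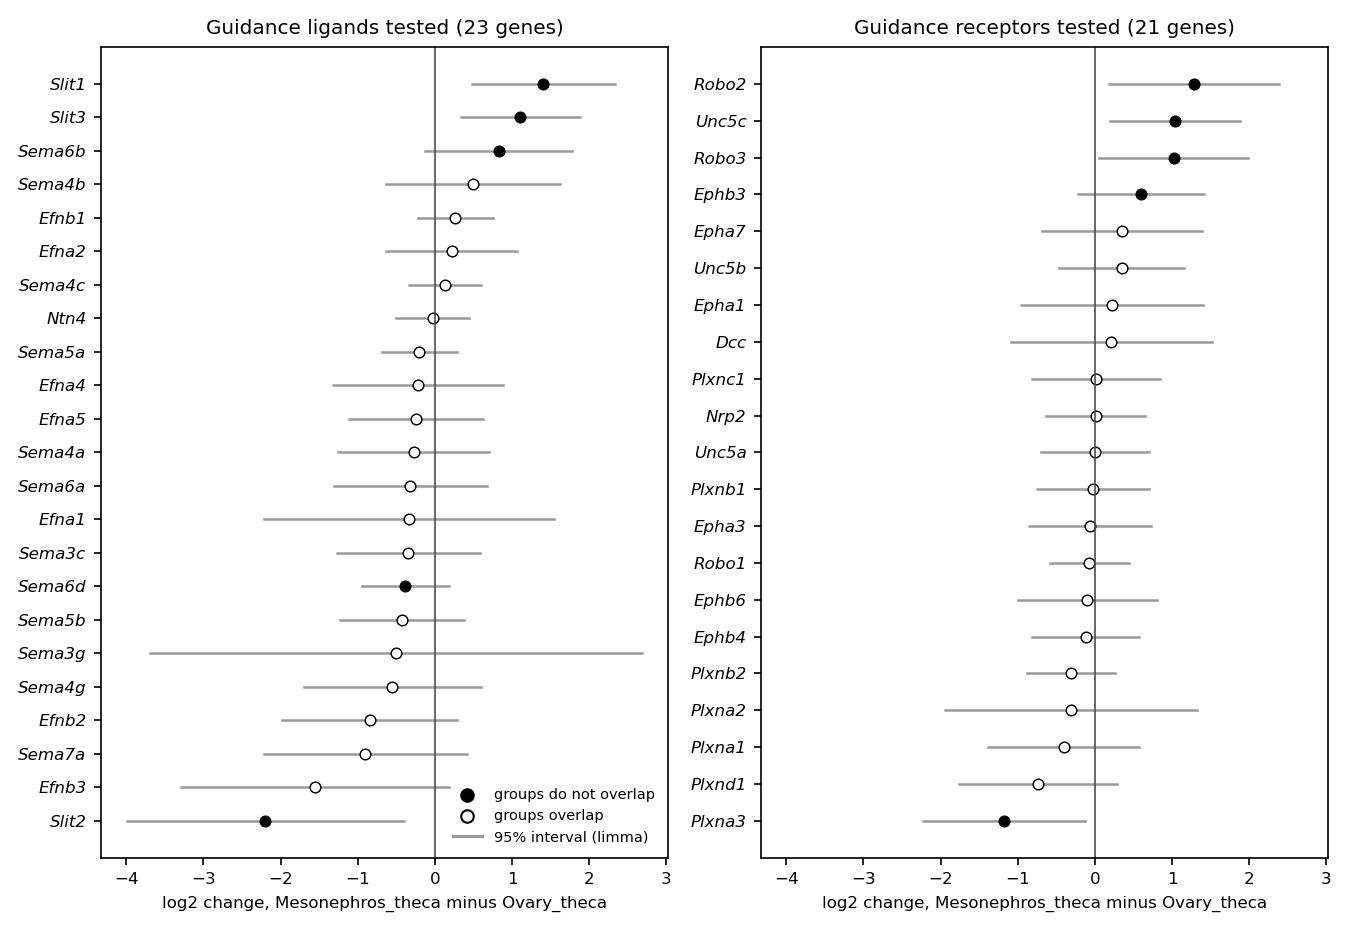
Log2 change (x axis, Mesonephros_theca minus Ovary_theca) of each tested guidance gene with its 95% interval from limma, ligands on the left and receptors on the right. Filled points are the 10 genes whose groups do not overlap. Slit1 at 1.41 and Slit2 at −2.20 mark the ends for ligands, Robo2 at 1.28 and Plxna3 at −1.17 for receptors, and most intervals cross 0.

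All 3 Slits, the secreted ligands of Robo receptors, separated the groups, and they did so in different directions. Slit1 had signals of 314, 486 and 307 in Mesonephros_theca, against 93.2, 109 and 195 in Ovary_theca, so that every Mesonephros_theca array was above every Ovary_theca array. Slit1 averaged 369 ± 101 in Mesonephros_theca and 132 ± 54.6 in Ovary_theca (SD, n = 3 each). The log2 change was 1.41 ± 0.41 (SE, limma adjusted p = 0.263, unadjusted p = 0.00744), or 2.65-fold, with a 95% interval of 0.48 to 2.33. Slit3 read 1390, 760 and 1515 in Mesonephros_theca and 664, 593 and 388 in Ovary_theca, again without overlap, and averaged 1222 ± 405 and 548 ± 143 (SD, n = 3 each). Its log2 change was 1.11 ± 0.34 (SE, limma adjusted p = 0.270), or 2.15-fold. Slit3 was the Slit with all 6 arrays well above the floor.

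Slit2 ran the other way. Its signals were 272, 7.30 and 79.0 in Mesonephros_theca, against 466, 318 and 367 in Ovary_theca. On Mesonephros_theca replicates 2 and 3 the probe set lay below the floor, and on replicate 1 it lay above. Slit2 averaged 120 ± 137 in Mesonephros_theca and 383 ± 75.6 in Ovary_theca (SD, n = 3 each). The log2 change was −2.20 ± 0.79 (SE, limma adjusted p = 0.311), with a wide interval of −3.99 to −0.40. It was −1.25 without Mesonephros_theca replicate 2 and −3.07 without replicate 1. Each Slit was read from 1 probe set past the floor, so no second probe set checks these directions. The other probe sets of Slit2 lay below the floor, 1 of them at 67.6, 27.7 and 3.07 in Mesonephros_theca against 97.0, 106 and 103 in Ovary_theca. The other probe set of Slit1, also below the floor, overlapped between the groups. It read 49.8, 11.7 and 12.0 in Mesonephros_theca against 10.9, 19.1 and 20.3 in Ovary_theca.

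Because these paralogs stood on opposite sides, their start regions are shown from RefSeq (GRCm38.p6), 250 bases up to the annotated start on the gene's strand, with GC boxes (GGGCGG on either strand, motifs may overlap) in capitals. Promoters in that table matched 56 of the 66 guidance genes. Slit2 is at chr5:47982905-47983154 and Slit3 at chr11:35121206-35121455, both on the plus strand.
Slit2: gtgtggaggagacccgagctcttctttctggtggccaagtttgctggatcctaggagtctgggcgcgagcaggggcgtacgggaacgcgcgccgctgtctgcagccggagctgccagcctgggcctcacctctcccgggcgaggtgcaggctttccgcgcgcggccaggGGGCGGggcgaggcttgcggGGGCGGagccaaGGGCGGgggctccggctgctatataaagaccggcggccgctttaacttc
Slit3: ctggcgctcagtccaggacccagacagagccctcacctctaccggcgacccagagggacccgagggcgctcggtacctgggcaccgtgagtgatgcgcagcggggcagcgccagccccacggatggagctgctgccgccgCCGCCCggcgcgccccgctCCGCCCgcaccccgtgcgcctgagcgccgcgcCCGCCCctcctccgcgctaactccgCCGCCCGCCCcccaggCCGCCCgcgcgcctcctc
The Slit2 window held 3 GC boxes and the Slit3 window 6, and 32.7% of all 32851 promoter windows of this length held at least 1. TATAAA occurred in Slit2, its first base 28 bases before the start, and not in Slit3, with 12.4% of all windows holding it on either strand. The letters GACCACCC, the core to which Gli factors bind, were in neither window and in 0.703% of all. Both windows were rich in G and C, at 69.6% for Slit2 and 78.8% for Slit3, against a median of 52.4% over all windows. These counts describe letters and not binding.

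Netrins were represented by Ntn4, which binds laminin in basement membranes. Its signals were 2511, 3080 and 2022 in Mesonephros_theca, against 2584, 2695 and 2396 in Ovary_theca. The groups overlapped, and the log2 change was −0.03 ± 0.21 (SE, limma adjusted p = 0.961). On this probe set the 95% interval of −0.50 to 0.44 bounds a difference to well under 1 log2 unit. The other probe set of Ntn4 stood at 0.10 ± 0.42 (SE), which bounds it less closely. Ntn1, the classical axon attractant, was not tested, with 65.1, 67.2 and 64.7 in Mesonephros_theca and 90.7, 106 and 57.1 in Ovary_theca. Ntn3 and Ntn5 were not tested either.

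Semaphorins gave 12 tested genes of 20, of which 3 were higher and 9 lower, with a median log2 change of −0.33 and none at an unadjusted p of 0.05. Sema6b and Sema6d, transmembrane semaphorins that bind class A plexins, were the ones without overlap. Sema6b read 288, 346 and 146 in Mesonephros_theca, against 130, 126 and 139 in Ovary_theca. The change was 0.83 ± 0.42 log2 units (SE, limma adjusted p = 0.414). Replicate 3 was barely above the highest Ovary_theca array, and with the poly-A spike covariate Sema6b stood at −0.18. Sema6d read 547, 663 and 529 in Mesonephros_theca, against 745, 744 and 783 in Ovary_theca. The change was −0.38 ± 0.25 log2 units (SE, limma adjusted p = 0.505). Another probe set of Sema6d stood on the other side at 0.49, so the direction of Sema6d depends on the probe set.

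The Mesonephros_theca arrays parted widely for several semaphorins. Sema3g, a secreted semaphorin of arterial endothelium that binds Nrp2, read 7.70, 2774 and 91.9 in Mesonephros_theca, against 355, 276 and 172 in Ovary_theca. The mean was 958 ± 1573 in Mesonephros_theca, where it rested on replicate 2, and 268 ± 91.6 in Ovary_theca (SD, n = 3 each), and the log2 change was −0.51 ± 1.41 (SE). It was −2.43 without that array and 1.01 without replicate 1, so Sema3g had no settled direction. Sema4b, a transmembrane semaphorin, read 4468, 1086 and 1100 in Mesonephros_theca, against 1204, 1062 and 1492 in Ovary_theca, and stood at −0.18 without replicate 1. Its other probe set past the floor read 2117, 1988 and 1283 in Mesonephros_theca, against 1086, 1334 and 1191 in Ovary_theca. That probe set was on the higher side at 0.54 ± 0.25 log2 units (SE), with overlap. Sema7a, a membrane-anchored ligand of Plxnc1 and integrins, read 231, 876 and 174 in Mesonephros_theca, against 888, 719 and 394 in Ovary_theca (log2 change −0.90 ± 0.58 SE, limma adjusted p = 0.505). Replicates 1 and 3 were below every Ovary_theca array and replicate 2 was not, and the change was −1.58 without replicate 2 and −0.47 without replicate 3.

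The brightest probe sets of the remaining tested semaphorins overlapped between the groups. Sema5a, which carries thrombospondin repeats, read 2381, 1840 and 2349 in Mesonephros_theca and 2406, 2143 and 3057 in Ovary_theca, and its interval lay between −0.69 and 0.28. Its other 3 probe sets past the floor were also on the lower side, at −0.65 to −0.34. Sema4c, a ligand of Plxnb2, read 1694, 1905 and 1448 in Mesonephros_theca against 1609, 1391 and 1579 in Ovary_theca, with an interval of −0.33 to 0.60. Sema3c, a secreted ligand of neuropilins, read 802, 308 and 879 in Mesonephros_theca and 954, 783 and 616 in Ovary_theca, and turned from −0.35 to 0.12 without Mesonephros_theca replicate 2. Sema4a, Sema4g, Sema5b and Sema6a had log2 changes between −0.55 and −0.28 and overlapped between the groups on their brightest probe sets. Dimmer probe sets of 3 of them gave larger differences on the same side. For Sema6a, a transmembrane semaphorin, both other probe sets past the floor were lower without overlap, at −0.75 and −1.03, and the mean of its probe sets stood at −0.70 (unadjusted p = 0.0395, limma adjusted p = 0.341). The other probe set of Sema4a was lower without overlap at −0.62, and that of Sema5b stood at −1.22 with overlap.

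Of 8 ephrins, 7 were tested, 2 on the higher and 5 on the lower side, and none was free of overlap on its brightest probe set. A dimmer probe set of Efnb1 and a dimmer one of Efnb2 were lower without overlap, at −0.55 and −1.01 log2 units. The other ephrin probe sets past the floor overlapped. Efnb2, the arterial ephrin that pairs with venous Ephb4, read 257, 1316 and 604 in Mesonephros_theca, against 1151, 1188 and 918 in Ovary_theca. Its log2 change was −0.85 ± 0.50 (SE, limma adjusted p = 0.471), and its 3 other probe sets past the floor stood at −1.01 to −0.44, all on the same side. Without Mesonephros_theca replicate 1, the lowest array, the change was −0.27. Efnb3 read 28.2, 177 and 496 in Mesonephros_theca, against 354, 536 and 525 in Ovary_theca (−1.55 ± 0.77 SE, limma adjusted p = 0.404). Without replicate 1 it stood at −0.61, and with the poly-A spike covariate at 0.66. Efnb1, the X-linked ephrin B, stood at 1626, 1734 and 1281 in Mesonephros_theca and 1306, 1185 and 1336 in Ovary_theca, with probe sets of both signs, −0.55 to 0.28.

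The A-class ephrins, which are anchored by a lipid, gave 4 tested genes and no clear side. Efna1 read 424, 173 and 16.8 in Mesonephros_theca, against 195, 140 and 148 in Ovary_theca, which put 1 array above and 1 array below the whole Ovary_theca range. Efna2, Efna4 and Efna5 had log2 changes of 0.22, −0.22 and −0.24, each smaller than its SE. Another probe set of Efna2 stood at −1.01.

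Among receptors, 2 of the 3 Robo genes separated the groups. Robo2 read 1607, 403 and 609 in Mesonephros_theca, against 223, 317 and 358 in Ovary_theca, with every Mesonephros_theca array above every Ovary_theca array. The log2 change was 1.28 ± 0.49 (SE, limma adjusted p = 0.323, unadjusted p = 0.0275), or 2.43-fold, and 0.72 without Mesonephros_theca replicate 1. Robo3, a divergent Robo known for the crossing of commissural axons, read 121, 200 and 152 in Mesonephros_theca, against 77.6, 73.1 and 55.4 in Ovary_theca. The log2 change was 1.02 ± 0.43 (SE, limma adjusted p = 0.354), with a 95% interval of 0.06 to 1.99. All 3 Ovary_theca arrays lay below the floor, and with them set to the floor the fold was 1.48. The other probe set of Robo3 was below the floor on average, and its groups overlapped. It read 81.5, 20.6 and 37.4 in Mesonephros_theca against 43.6, 25.9 and 43.0 in Ovary_theca. Robo1, the Robo with the narrowest interval, read 1201, 1135 and 1015 in Mesonephros_theca and 1368, 1204 and 975 in Ovary_theca, with a log2 change of −0.07 ± 0.23 (SE) and an interval of −0.59 to 0.44.

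Together the Slit and Robo families had 6 tested genes, and for 5 the groups did not overlap, 4 of them higher and 1 lower in Mesonephros_theca, where 9.56% of all genes tested were higher and 12.6% lower without overlap. None passed the adjusted threshold, and the families were singled out after their values were seen. Smooth muscle and pericyte markers lay on the same side as Slit1, Slit3, Robo2 and Robo3, with 10 of 10 genes higher, 2 of them past an adjusted p of 0.05 in limma, and a summed signal of 69228 to 84974 in Mesonephros_theca, against 33093 to 41528 in Ovary_theca. Stroma markers lay mostly on that side too, with 6 of 7 genes higher and none past the adjusted threshold. The smooth muscle list averaged 0.86, 1.17 and 1.04 log2 units from the Ovary_theca mean on Mesonephros_theca replicates 1, 2 and 3. Slit1 (1.21, 1.82 and 1.18) and Robo3 (0.71, 1.36 and 1.00) were also highest on replicate 2. Slit3 (1.35, 0.49 and 1.47) and Robo2 (2.39, 0.44 and 1.01) were lowest there. The part of either marker list in the Slit and Robo values was not tested. With the poly-A spike signal of each array as a covariate, the log2 change was 0.71 for Slit1, 1.92 for Slit3, −2.01 for Slit2, 0.64 for Robo2 and 1.17 for Robo3, all on the side they had without it. Spike signal was higher on every Mesonephros_theca array than on every Ovary_theca array. This fit therefore separates spike from group poorly, and the kept directions are weak support.

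**Figure D2:**
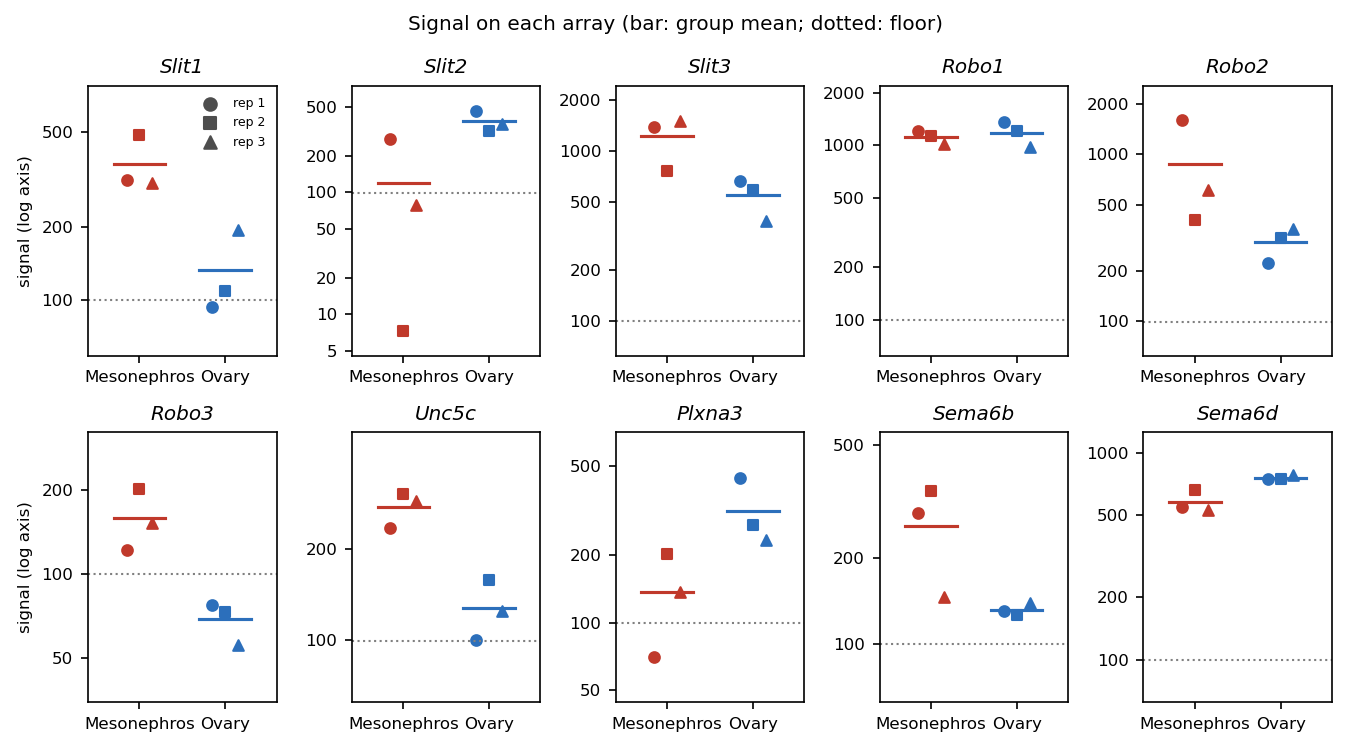
Signal of each array on a log axis for the Slit and Robo genes and for Unc5c, Plxna3, Sema6b and Sema6d, with Mesonephros_theca on the left and Ovary_theca on the right of each panel. Bars are group means of 3 arrays and the dotted line is the floor of 99.4. Slit2 on Mesonephros_theca replicate 2 lies at 7.30 and all Ovary_theca arrays of Robo3 lie under the floor, while the Robo1 groups overlap.

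Unc5 receptors, which mediate repulsion by netrins, showed 1 gene without overlap. Unc5c read 236, 305 and 289 in Mesonephros_theca, against 99.8, 159 and 125 in Ovary_theca. Its log2 change was 1.04 ± 0.37 (SE, limma adjusted p = 0.308, unadjusted p = 0.0207), or 2.05-fold, and it stayed between 0.89 and 1.19 whichever array was left out. Unc5b, an endothelial netrin receptor, read 1168, 2998 and 1169 in Mesonephros_theca, against 1277, 1270 and 1224 in Ovary_theca, so its log2 change of 0.35 ± 0.36 (SE) rested on replicate 2 and was −0.10 without it. Unc5a read 371, 334 and 335 in Mesonephros_theca and 285, 351 and 415 in Ovary_theca, with an interval of −0.70 to 0.70. Dcc, the attractive netrin receptor, was near the floor at 99.5 to 197 in Mesonephros_theca and 41.7 to 197 in Ovary_theca.

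Plexins, the semaphorin receptors, had 7 tested genes of 9, 1 on the higher and 6 on the lower side. Plxna3, a receptor of class 3 semaphorins, was the one without overlap. It read 70.5, 203 and 138 in Mesonephros_theca, against 443, 274 and 235 in Ovary_theca. It differed by −1.17 ± 0.46 log2 units (SE, limma adjusted p = 0.340, unadjusted p = 0.0321), and its other probe set past the floor stood at −0.89. Plxnd1, the receptor through which Sema3e acts on vessels, read 206, 830 and 460 in Mesonephros_theca, against 722, 776 and 686 in Ovary_theca (−0.73 ± 0.45 SE, limma adjusted p = 0.487). Without replicate 1 it stood at −0.23. On its brightest probe set Plxna1 was low on replicate 1 alone, at 393, 1388 and 1225 in Mesonephros_theca against 1121, 1204 and 1179 in Ovary_theca. Its other probe set, below the floor on average, read 21.2, 40.5 and 30.7 in Mesonephros_theca against 148, 181 and 67.4 in Ovary_theca, without overlap. The mean of both Plxna1 probe sets stood at −1.0 (unadjusted p = 0.0265, limma adjusted p = 0.315), against −0.41 for the brightest. Plxnb2 was lowest there too, at 920, 1650 and 1381 against 1632, 1583 and 1542 in Ovary_theca.

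Plxna2 showed how far the Mesonephros_theca arrays could part, at 350, 3445 and 570, against 1176, 1544 and 740 in Ovary_theca. Its 4 probe sets past the floor ran from −1.05 to 0.64 log2 units. Plxnc1, the Sema7a receptor, read 2524, 964 and 1211 in Mesonephros_theca and 1333, 1889 and 1143 in Ovary_theca, with a change of 0.01 ± 0.36 (SE). Plxnb1, a Sema4d receptor, stood at −0.03 ± 0.32 (SE). Nrp2, the co-receptor for Sema3c, Sema3f and Sema3g, read 2929, 5960 and 4973 in Mesonephros_theca, against 3442, 4709 and 5241 in Ovary_theca, or 0.01 ± 0.28 log2 units (SE, limma adjusted p = 0.990). Its 3 other probe sets past the floor were all lower, at −1.05 to −0.54, and the mean of its probe sets stood at −0.55 (unadjusted p = 0.0117, limma adjusted p = 0.281).

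Eph receptors had 6 tested genes of 13, 3 higher and 3 lower. Ephb3 read 353, 271 and 214 in Mesonephros_theca, against 164, 161 and 204 in Ovary_theca, without overlap (0.60 ± 0.36 SE, limma adjusted p = 0.478). With the poly-A spike covariate Ephb3 stood at −0.0085. Ephb4, the venous partner of Efnb2, read 770, 1798 and 1234 in Mesonephros_theca, against 1313, 1316 and 1273 in Ovary_theca, and turned from −0.12 to 0.19 without replicate 1. Epha3 read 418, 1030 and 812 in Mesonephros_theca and 815, 705 and 701 in Ovary_theca, and 2 of its other probe sets were on the other side of 0. Ephb6, which lacks kinase activity, stood at −0.10 ± 0.40 (SE). Epha1 and Epha7 stood at 0.22 and 0.35 with SEs of 0.52 and 0.46, and their groups overlapped on these brightest probe sets. A dimmer probe set of Epha1 past the floor was higher without overlap, at 0.66 ± 0.42 (SE). So was its probe set below the floor, while a probe set of Epha7 below the floor was lower without overlap.

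**Figure D3:**
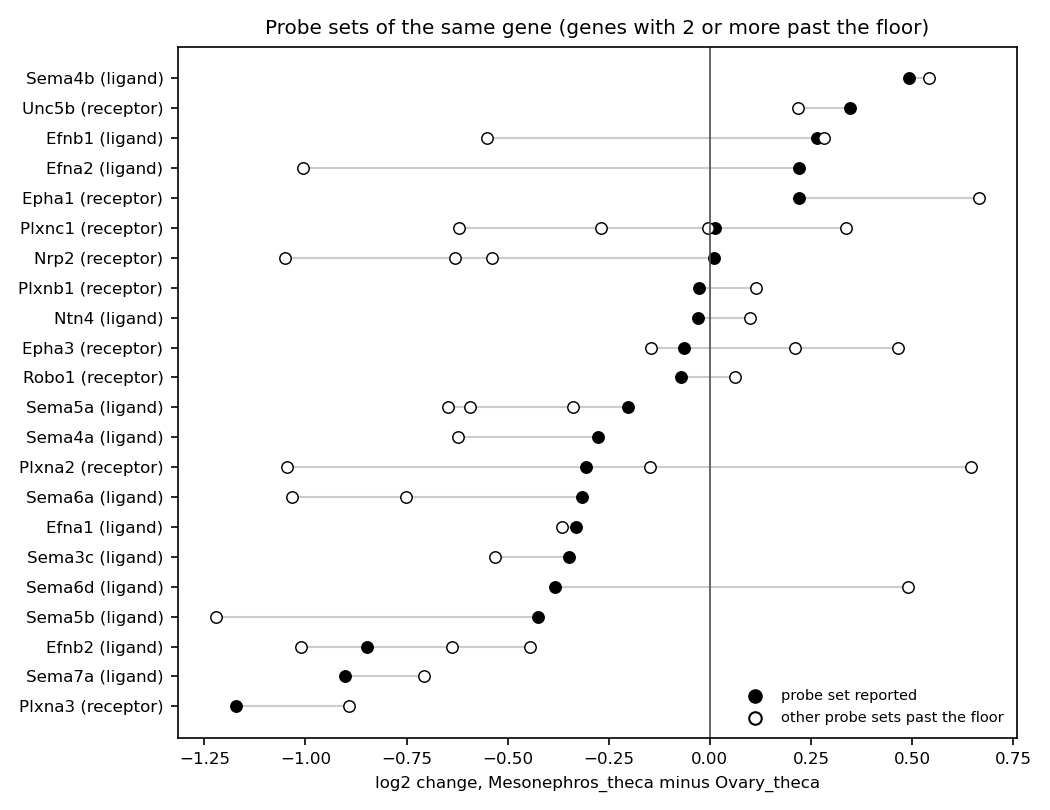
Log2 change (x axis) of every probe set past the floor for the 22 tested guidance genes that have at least 2, with the reported probe set filled. For 10 genes at least 1 other probe set lies on the opposite side of 0, among them Nrp2, Sema6d and Efnb1, while all probe sets of Efnb2, Sema5a and Plxna3 lie below 0.

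Of the 22 guidance genes that were not tested, 12 were ligands and 10 receptors, and 7 of them lay below the floor on all 6 arrays. Ephb1 read 32.9, 37.7 and 8.07 in Mesonephros_theca, against 164, 78.7 and 109 in Ovary_theca, so that all Mesonephros_theca arrays were lower. Sema3a was dim in both groups, at 60.8, 68.1 and 47.2 in Mesonephros_theca and 29.5, 35.2 and 46.6 in Ovary_theca, and Epha5 read 186, 63.9 and 43.9 in Mesonephros_theca against 13.0, 23.4 and 43.4 in Ovary_theca. These were the 3 untested genes without overlap. Sema3f, a secreted ligand of Nrp2, read 16.4, 204 and 16.9 in Mesonephros_theca, against 36.5, 11.5 and 13.8 in Ovary_theca, with replicate 2 as its one bright array.

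The 3 Mesonephros_theca arrays placed the guidance genes differently. On replicate 1, 12 of the 44 tested genes lay above the range of the Ovary_theca arrays and 22 below it. On replicate 2, 25 lay above and 8 below, and on replicate 3, 8 above and 17 below. Over all genes tested the corresponding shares were 36.1% above and 44.7% below on replicate 1, 36.1% and 41.7% on replicate 2, and 29.1% and 34.8% on replicate 3. Replicate 2 was therefore above the Ovary_theca range for 56.8% of guidance genes. The root mean square deviation of guidance genes from their own group mean was 0.88, 0.91 and 0.53 log2 units on the Mesonephros_theca arrays, against 0.26, 0.21 and 0.33 on the Ovary_theca arrays. Over all genes tested it was 0.67, 0.60 and 0.48, against 0.25, 0.21 and 0.26, so the wider Mesonephros_theca spread was not particular to guidance genes.

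Endothelial and macrophage markers differed between the same arrays. The 11 tested endothelial markers, among them Kdr, Pecam1 and Cdh5, averaged −2.0, 0.22 and −1.07 log2 units from the Ovary_theca mean on Mesonephros_theca replicates 1, 2 and 3. The summed signal of all 12 on the array was 4855 to 12215 in Mesonephros_theca, against 8304 to 12395 in Ovary_theca, with none at 0, and 2 of 11 were higher and 9 lower. Efnb2, Plxnd1, Sema3g and Plxna2, picked for known roles in vessels or nerves after their values were seen, had the same order of Mesonephros_theca arrays, replicate 1 lowest and replicate 2 highest. This order was not particular to them, since members not picked in this way, among them Dcc, Epha1, Robo3 and Unc5c, had it too. Replicate 2 lay above the Ovary_theca range for 25 of the 44 tested guidance genes. The 7 tested macrophage markers averaged −2.74, 0.26 and −0.75, with 7 of 7 lower and summed signals of 1370 to 10834, against 5252 to 7714 in Ovary_theca. Which part other cell types had in the guidance values was not tested.

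**Figure D4:**
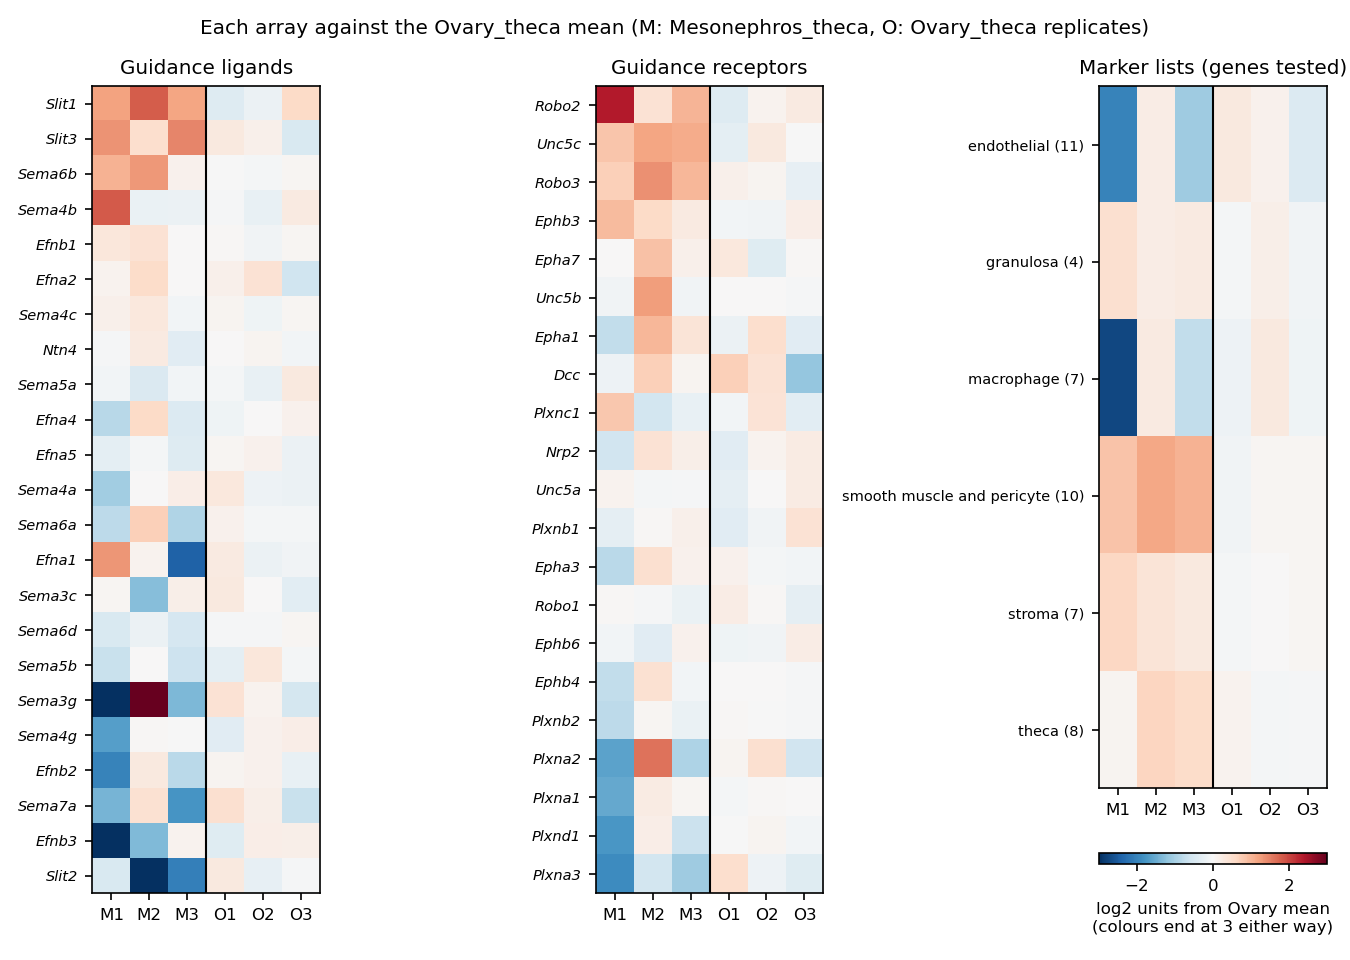
Deviation of each array from the Ovary_theca mean in log2 units (colour, ending at 3 in either direction) for 23 ligands, 21 receptors and the marker lists with at least 4 tested genes, with Mesonephros_theca arrays left of the black line. Replicate 1 is blue for the endothelial and macrophage lists and for Efnb2, Plxnd1 and Plxna2, and replicate 2 is red for Sema3g and Plxna2.

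**Figure D5:**
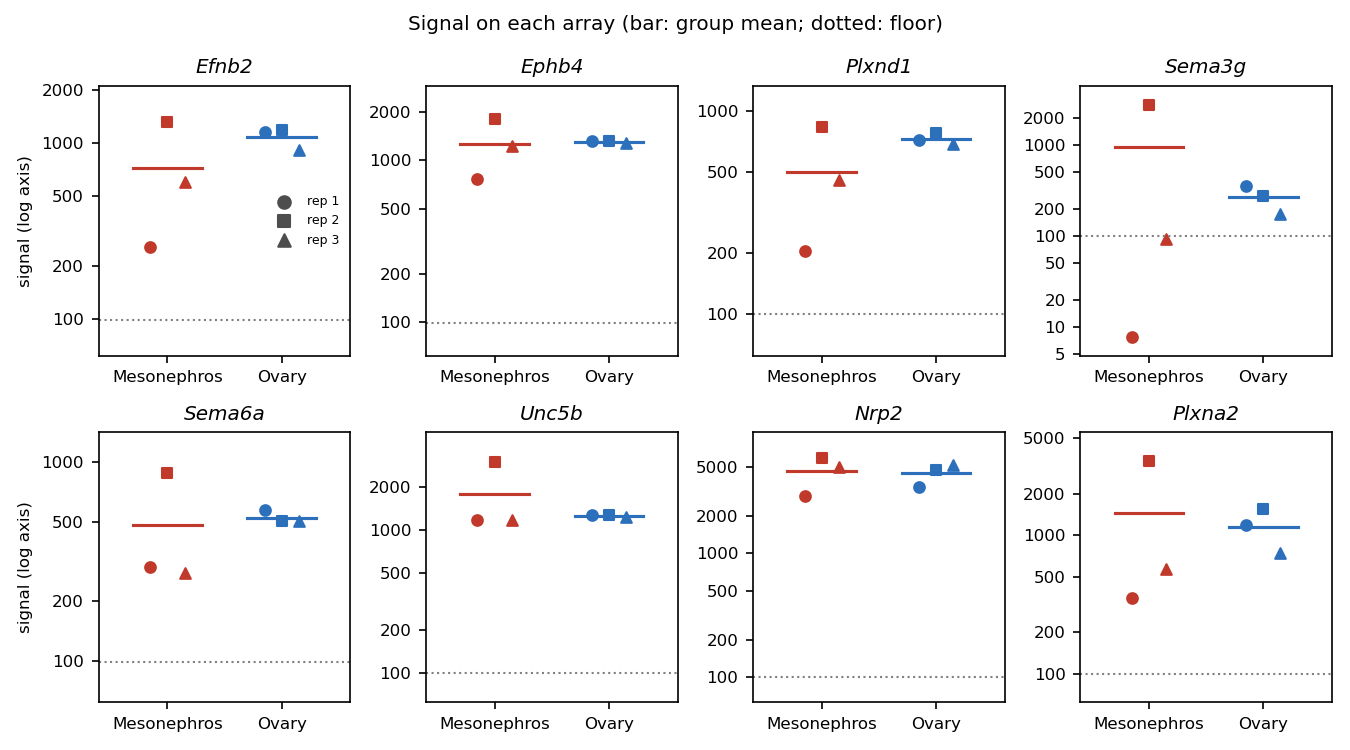
Signal of each array on a log axis for Efnb2, Ephb4, Plxnd1, Sema3g, Sema6a, Unc5b, Nrp2 and Plxna2, 8 genes picked for roles in vessels or nerves after their values were seen, Mesonephros_theca left and Ovary_theca right, with group means as bars and the floor dotted. The Ovary_theca arrays of Ephb4 (1273 to 1316) and Unc5b (1224 to 1277) sit close together, while Mesonephros_theca replicate 2 is the highest point of these 8 panels. Replicate 2 was not high for these 8 genes alone, since it lay above the Ovary_theca range for 25 of the 44 tested guidance genes. Nor was it high for every member, since Slit2 (7.30) and Sema3c (308) are lowest on replicate 2.

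Genes that work with guidance receptors but fall outside the naming rule were read from 2 further lists. Of 16 tested partners on the cell surface, 6 were higher and 10 lower, with a median log2 change of −0.23, none past the adjusted threshold and 2 of 16 at an unadjusted p of 0.05, against 13.7% of all genes tested. Robo4, the endothelial Robo, read 51.3, 96.6 and 63.4 in Mesonephros_theca, against 337, 359 and 149 in Ovary_theca, with every Mesonephros_theca array below the floor and below every Ovary_theca array. Itga1, an integrin that can bind Sema7a, read 1054, 2006 and 2208 in Mesonephros_theca, against 794, 728 and 826 in Ovary_theca (1.08 ± 0.30 SE, limma adjusted p = 0.246). Itgb1 and Dag1, which encodes the Slit-binding dystroglycan, stood at −0.43 and −0.33.

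The other list held proteins that act below guidance receptors, mostly intracellular, and the transmembrane plexin-domain proteins Plxdc1 and Plxdc2. Of its 42 tested genes, 22 were higher and 20 lower, with a median log2 change of 0.02, none past the adjusted threshold and 6 (14.3%) at an unadjusted p of 0.05, against 13.7% of all genes tested. Both counts lie near that background, and the genes named have the smallest unadjusted p of their list, Srgap1 apart. Plxdc1 read 33.7, 48.9 and 110 in Mesonephros_theca, against 305, 349 and 271 in Ovary_theca (−2.12 ± 0.46 SE, limma adjusted p = 0.185). The actin regulators Cfl1 and Cdc42 stood at 0.57 and 0.51 with limma adjusted p-values of 0.263 and 0.287. The Slit-Robo GTPase-activating proteins Srgap1 and Srgap2 lay on opposite sides, and Srgap1 was singled out after its values were seen. Srgap2 read 1171, 727 and 1519 in Mesonephros_theca, against 511, 507 and 718 in Ovary_theca (0.91 ± 0.32 SE, limma adjusted p = 0.302). Srgap1 read 4.40, 477 and 232 in Mesonephros_theca, against 843, 769 and 807 in Ovary_theca (−2.60 ± 0.98 SE, limma adjusted p = 0.319).

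For 14 of the 44 tested guidance genes the 95% interval of the change lay within 1 log2 unit of 0 on either side. These were 5 ligands and 9 receptors, Robo1, Nrp2, Ntn4, Efnb1, Sema5a and Sema4c among them. For the other 30 tested genes these arrays do not bound a change of that size. Each interval belongs to the brightest probe set only. Other probe sets past the floor stood at −1.05 to −0.54 for Nrp2, and that of Ntn4 had an SE of 0.42. A dimmer probe set of Efnb1 stood at −0.55 ± 0.24 (SE), on the other side of 0 from the brightest. Those of Sema5a stood at −0.65 to −0.34, with SEs of up to 0.59. Separate animals are not stated in the labels. The p-values therefore reflect only how far these 6 arrays spread, and part of that spread may be technical.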

How the data were processed

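The 6 single-colour arrays were read, 1 per sample. The deposited intensity values are linear MAS5 signals, per the submitters' processing notes, made after amplification with WT-Ovation Pico and the Encore Biotin Module, per the labels' protocols. Each array had been scaled to a trimmed mean of 500, as its values show. Control probe sets were removed. Names came from the platform annotation, with 34945 probe sets carrying 1 symbol, 932 several and 9160 none. Signals were taken as log2(signal + 16), the probe set with the highest mean stood for a gene, and genes under the 40th percentile of all probe sets were not tested. Group differences were fitted by lmFit and eBayes with an intensity trend (limma 3.58.1, R 4.3.3) and p-values were adjusted by Benjamini-Hochberg over all genes tested. The fit was also run on simulated data in which both groups had the same spread. These arrays differ in spread between the groups, so that run cannot vouch for the fit here. The precision is limited by the 3 arrays per group. Full values are given for up to 8 ligands and 8 receptors with the smallest unadjusted p and for a set of well-known members, and up to 4 genes of each further list are named. Others are named as members. Members, lists and named genes were chosen with earlier results of these data known. Alternatives covered the pseudocount, floor, scaling, probe set choice, variance model, array weights, the spike covariate, the replicate number and each array left out. Deviations of same-numbered arrays correlated at −0.00048, 0.07 and −0.01, so the numbers were not taken to pair samples.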

Additional observations from a re-analysis of the deposited data

How the results depend on the processing

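No guidance gene passed an adjusted p of 0.05 (limma) under the 19 alternatives, of which 13 kept all arrays; at an unadjusted p of 0.05 there were between 2 and 12 in place of 7. Over all genes, the 5 calls became 3 with a pseudocount of 1, 2 with median centring, 8 with the mean of probe sets, 0 without the intensity trend (1504 genes at an unadjusted p of 0.05), 129 with arrays weighted, 0 once the poly-A spike signal entered as a covariate (306 genes at an unadjusted p of 0.05), and ranged between 0 and 58 with 1 array left out, 58 without Mesonephros_theca replicate 1. The ligand median stayed below 0, at −0.44 to −0.18 with all arrays and −0.42 to −0.08 with 1 left out. The receptor median lay between −0.17 and 0.08 with all arrays and between −0.084 and 0.30 with 1 left out, 0.30 without Mesonephros_theca replicate 1. The numbers of replicates name arrays only, and with the replicate number as a replicate block 4 genes were called over all genes and 0 among guidance genes. Of 545 values of the 44 tested genes with all arrays kept, 508 kept their direction and 37 turned. With array weights the sign turned, to log2 changes of −0.034 for Efna2, 0.10 for Epha3, 0.038 for Ephb6, 0.11 for Plxnb1, −0.31 for Plxnc1 and 0.044 for Sema4a. With probe sets of a gene averaged the sign turned, to log2 changes of −0.39 for Efna2, −0.0013 for Efnb1, 0.12 for Epha3, −0.55 for Nrp2, 0.034 for Ntn4, 0.044 for Plxnb1 and −0.26 for Plxnc1. With median centring the sign turned, to log2 changes of 0.015 for Epha3, 0.048 for Ntn4, 0.053 for Plxnb1, 0.0076 for Robo1 and 0.078 for Unc5a. With the poly-A spike covariate the sign turned, to log2 changes of −0.13 for Efnb1, 0.66 for Efnb3, 0.31 for Epha3, −0.0085 for Ephb3, 0.052 for Ephb6, 0.29 for Plxna1, −0.19 for Plxnc1, 0.61 for Sema3c, 0.58 for Sema4a, −0.65 for Sema4b, −0.17 for Sema4c, 0.065 for Sema4g, −0.18 for Sema6b and −0.23 for Unc5b. With a pseudocount of 1 the sign turned, to log2 changes of 0.00033 for Unc5a. With quantile normalization the sign turned, to log2 changes of 0.035 for Epha3, −0.10 for Nrp2, 0.024 for Plxnb1 and 0.038 for Unc5a. Of 264 values with 1 array left out 35 turned, and the genes concerned ranged as follows: Dcc at −0.36 to 0.58, Efna1 at −1.16 to 0.71, Efna2 at −0.077 to 0.44, Efna4 at −0.63 to 0.087, Epha1 at −0.17 to 0.69, Epha3 at −0.33 to 0.30, Ephb4 at −0.41 to 0.19, Ephb6 at −0.21 to 0.025, Nrp2 at −0.20 to 0.31, Ntn4 at −0.18 to 0.12, Plxna1 at −0.73 to 0.16, Plxna2 at −1.27 to 0.35, Plxnb1 at −0.20 to 0.19, Plxnc1 at −0.39 to 0.30, Robo1 at −0.20 to 0.040, Sema3c at −0.61 to 0.12, Sema3g at −2.43 to 1.01, Sema4a at −0.52 to 0.11, Sema4b at −0.18 to 0.83, Sema4g at −0.84 to 0.0035, Unc5a at −0.13 to 0.13 and Unc5b at −0.10 to 0.57. The cause of these turns was not tested. Precision is limited by 3 arrays per group and, near the floor, by dim signal.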
